A study of Mus musculus with 16 samples.

Results

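Connexin gap junction genes were examined in the bladder body of MAT and AGED mice. They were Gja1, Gja4, Gja5, Gjb2, Gjb5, Gjb6 and Gjc1, and their probes were found through the RefSeq accession that the arrays list for each probe. The 7 genes had 8 probes, since Gja5 had a pair of them, and 6 of the 7 genes were among the 26781 genes tested. None of the 6 passed the test for an age change in males, in females, or for a difference between these changes. Each array held RNA of 1 C57BL/6 mouse, and the 16 arrays fell into 4 groups of 4. MAT males and MAT females were 12 months old, AGED males and AGED females were 27 to 30 months old. The labels name no transgene and no treatment. The study asked how ageing changes the bladder of each sex. Its gene expression arm compared whole tissue, so fewer cells of a type and less RNA per cell cannot be told apart.

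Connexins are membrane proteins that assemble into hemichannels, and hemichannels of adjoining cells dock into gap junction channels through which ions and small molecules pass. In the bladder, gap junctions are known to couple detrusor smooth muscle cells and interstitial cells, and Gja1 is the connexin most often studied there. Blood vessels use Gja4, Gja5, Gja1 and Gjc1, while the beta connexins Gjb2, Gjb5 and Gjb6 are known mainly from epithelia.

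Values are log2 processed signals less the 75th percentile of the array, called scaled log2 signals here. A value below 0 lies under that percentile and is not a loss. A probe's signal depends on its own sequence, so levels are compared between arrays and not between genes. A gene was called when limma's Benjamini-Hochberg adjusted p over all genes tested was under 0.05 and the change was at least 2-fold. Feature Extraction marks a spot as well above background against its local surroundings. The probes of Gja1, Gja4, Gjb2, Gjb6 and Gjc1 and the brighter probe of Gja5 were well above background on 4 of 4 arrays of every group. The single probe of Gjb5 was well above background on 1 MAT female array, 1 AGED female array and 0 male arrays. The dimmer probe of Gja5 was well above background on 1 MAT female array alone.

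The male arrays lay on 1 slide and the female arrays on the other, with MAT arrays in row 1 and AGED arrays in row 2, so sex and slide cannot be told apart, and neither can age and row. AGED male replicate 1 was the dimmest array, with 52.4% of probes well above background against 58.7% to 68.3% on the others. The number of arrays limits the precision. The 10 spots of a replicated probe also scattered more on AGED male arrays. Over 251 bright replicated probes the median SD of the spots was 0.123 to 0.335 on AGED male arrays and 0.054 to 0.162 on MAT male arrays, while in females it was 0.034 to 0.062 for MAT and 0.058 to 0.093 for AGED mice. Ddx3y, a Y-linked gene, was well above background on 8 of 8 male and 0 of 8 female arrays. Every sign below follows the labels of the arrays. Of the study's list of genes most changed with age, Chil3, Defb50, AI593442 and Kcnj5 were checked, and all of them ran opposite to that list under the labels, in both sexes. Whether the age labels or the list are reversed was not settled here. If it is the labels, every age change below turns its sign and the MAT and AGED groups exchange their names.

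In the age comparison of males, 0 of 6 connexin genes were called, beside 0.851% of all genes tested, and 0 of 6 passed the adjusted p with no fold limit, beside 1.72%. The same counts in females were 0 of 6, beside 0.190% of all genes with the fold limit and 0.224% without it. The difference of the age changes, males minus females, was called for 0 of 6, beside 0.149% of all genes. These shares move with single arrays. The 51 genes behind the female share became 1 when MAT female replicate 1 or 4 or AGED female replicate 2 was dropped, and 119 when AGED male replicate 1 was, while the 40 behind the difference ran from 6 to 270. At an unadjusted p under 0.05 limma had 1 gene in males (Gjb6), 1 in females (Gjb2) and 2 for the difference (Gjb2 and Gjb6). Among all genes 16.2%, 10.5% and 9.87% passed that mark. The median change of the 6 genes was 0.002 on the log2 scale in males and 0.26 in females, beside 0.001 and -0.006 over all genes. Of the 6 genes, 5 in each sex had a 95% interval that lay wholly within a 2-fold change either way. The exceptions were Gjb6 in males and Gjb2 in females.

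**Figure D1:**
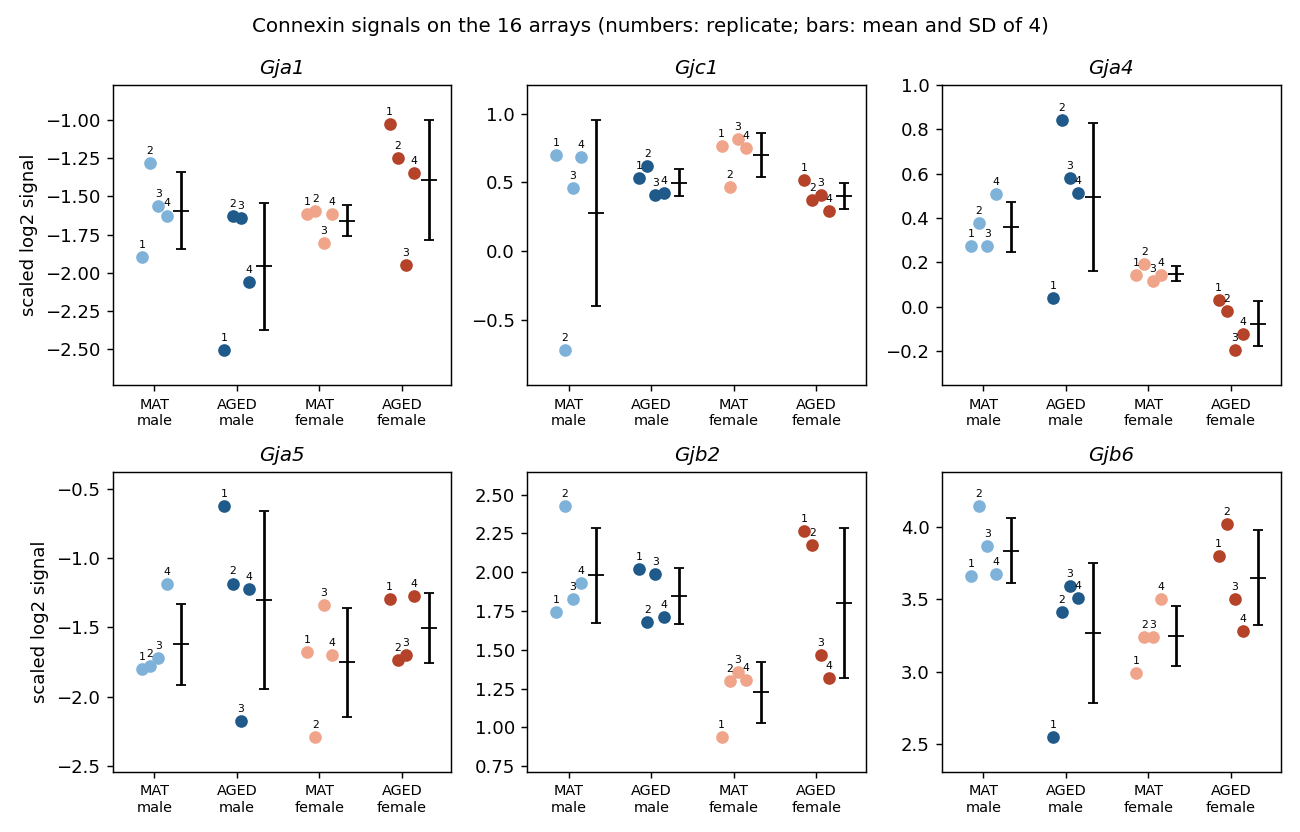
Scaled log2 signal (y axis) of the 6 connexin genes that were tested, 1 panel per gene, with a point for each array, a bar for the group mean and a line for 1 SD (4 arrays per group). All MAT female arrays sit below all MAT male arrays for Gja4, Gjb2 and Gjb6, whereas the groups of Gja1, Gja5 and Gjc1 overlap.

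**Figure D2:**
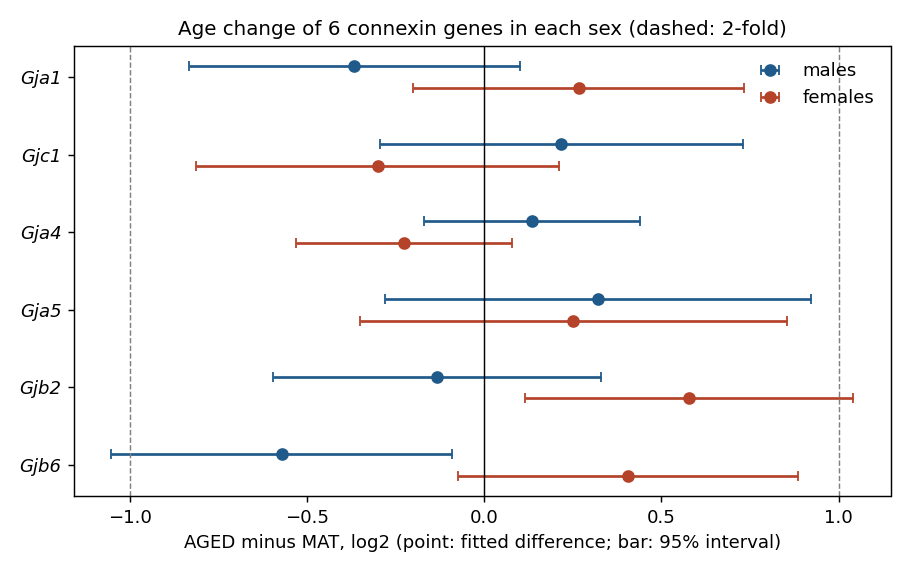
Fitted age change (AGED minus MAT, log2, x axis) of each gene in males and in females, with its 95% interval from limma and dashed lines at 2-fold. The intervals of Gjb6 in males (-1.05 to -0.09) and Gjb2 in females (0.12 to 1.04) leave out 0, and those of the other 10 changes include it.

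Gja1 encodes Cx43, which is found in detrusor muscle, interstitial cells and many other cell types. Its promoter is shown because the AP-1 factors Jun and Fos, which are known to act on this gene, were among the regulators measured. The window runs from 250 bases before to 50 bases after the start of the gene in RefSeq, and the letters TGANTCA, the AP-1 motif, are in capitals. It lies on the plus strand at chr10:56377050-56377349 (GRCm38.p6).
Gja1: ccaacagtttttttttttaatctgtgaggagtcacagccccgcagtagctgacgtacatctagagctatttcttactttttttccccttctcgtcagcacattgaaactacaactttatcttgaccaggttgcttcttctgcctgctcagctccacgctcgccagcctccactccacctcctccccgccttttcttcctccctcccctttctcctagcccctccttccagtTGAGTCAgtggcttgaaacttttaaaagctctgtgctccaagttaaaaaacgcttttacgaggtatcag
The motif matched once in the Gja1 window, on either strand, and overlapped 1 E-box match (CANNTG). Of 32851 promoters of that length, 7.81% held TGANTCA and 72.3% held CANNTG. Among the 6 of the 7 connexin genes whose promoter was matched, Gja1 was the 1 gene with the AP-1 letters, and 5 of 6 held an E-box. Such a match is a description of letters and not evidence of binding.

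The scaled log2 signals of Gja1 were -1.90, -1.28, -1.56 and -1.62 in MAT males and -2.51, -1.63, -1.64 and -2.06 in AGED males. In females they were -1.62, -1.59, -1.81 and -1.62 on MAT arrays and -1.02, -1.25, -1.95 and -1.34 on AGED arrays. The groups overlapped in both sexes, with AGED male replicate 1 the lowest of the 16 arrays and AGED female replicate 1 the highest. The group means ran from -1.39 ± 0.39 (SD, n = 4) in AGED females through -1.59 ± 0.25 in MAT males and -1.66 ± 0.10 in MAT females to -1.96 ± 0.42 in AGED males. Each of the 3 steps in this order, 0.20, 0.07 and 0.30, was smaller than the SD of 0.32 pooled over the groups. In males the fitted change with age was -0.37 (limma, adjusted p = 0.425, standard error 0.22), and -0.18 without AGED male replicate 1. In females it was 0.27 (adjusted p = 0.735, standard error 0.22), with 0.14 to 0.45 when single arrays were left out. Subtracting the female from the male change gave -0.63 (limma, adjusted p = 0.528, standard error 0.31). In AGED mice Gja1 was lower in males than in females by a fitted -0.57 (limma, unadjusted p = 0.0203, adjusted p = 0.114), with overlapping groups.

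The probe of Gja1 was spotted 10 times on each array, and spots disagreed on male arrays of both ages. Outlier flags took out 11 spots, of which 7 lay on MAT male, 2 on AGED male and 2 on MAT female arrays. The flagged MAT male spots reached from -4.09 to 2.03. Among the spots without a flag the SD was 0.05 to 0.14 on 13 arrays and 0.742, 0.745 and 0.850 on AGED male replicates 1, 3 and 4, whose low spots carried no flag. With the spots ordered from the top of the array to its bottom, the mean of the upper 5 was -1.62 ± 0.26 (SD, n = 4) in MAT males and -1.61 ± 0.31 in AGED males. AGED minus MAT was thus 0.01 in the upper 5 spots and -0.73 in the lower 5. The same differences in females were 0.25 and 0.28. The upper 5 spots of AGED male replicate 1 scattered as well, with an SD of 0.70. For the sex difference in AGED mice, the upper 5 spots had a mean of -1.61 in males and -1.40 in females. The lower 5 had -2.30 and -1.38. The split by position was chosen after the values were seen and was given no test, and flagged spots were left out of it. With the median of the spots in place of the mean, also chosen after seeing the data, the age change in males was -0.20 (standard error 0.26, adjusted p = 0.732 from limma).

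**Figure D3:**
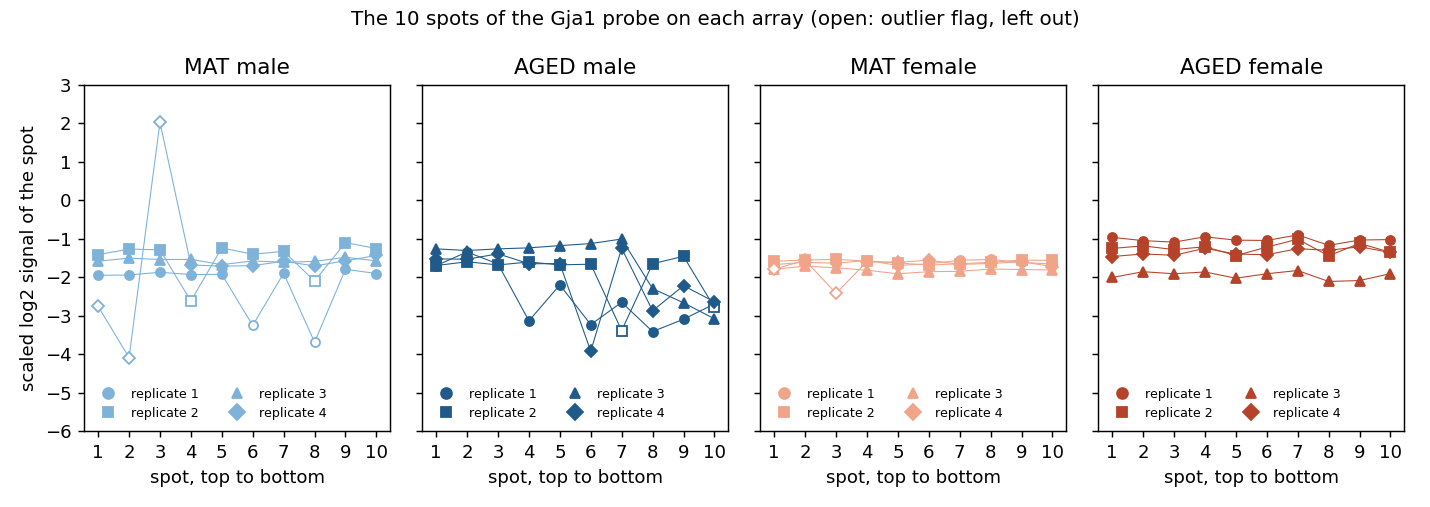
Scaled log2 signal (y axis) of each of the 10 spots of the Gja1 probe, ordered from the top to the bottom of the array (x axis), with 1 line per array and open points for spots with an outlier flag. Among spots without a flag those of the MAT arrays and of AGED females lie close together. On AGED male replicates 3 and 4 most of the lower spots lie below every upper spot of the same array. On AGED male replicate 1 the upper spots scatter as well, from -1.34 to -3.13.

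Gjc1 encodes Cx45, the connexin of smooth muscle and of developing vessels and heart. Its signals were 0.70, -0.72, 0.46 and 0.68 in MAT males and 0.54, 0.62, 0.41 and 0.42 in AGED males. MAT females had 0.76, 0.46, 0.82 and 0.75 and AGED females 0.52, 0.37, 0.41 and 0.29. Apart from the single low array, MAT male replicate 2, the male groups lay in the same range, and in females 3 of 4 AGED arrays lay below every MAT array. The 15 nearest spots of replicated probes on MAT male replicate 2 also deviated from the other spots of their probes, by a median of -0.44. Their part in the low Gjc1 value was not tested. In males the fitted change with age was 0.22 (limma, adjusted p = 0.681, standard error 0.24), and without MAT male replicate 2 it was -0.12. In females it was -0.30 (standard error 0.24, adjusted p = 0.727 from limma; exact two-sided permutation test, p = 0.0571). The group means ran from 0.70 ± 0.16 (SD, n = 4) in MAT females through 0.50 ± 0.10 in AGED males and 0.40 ± 0.09 in AGED females to 0.28 ± 0.68 in MAT males, with every step below the pooled SD of 0.35.

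Of the 10 smooth muscle markers, which Cnn1 and Tagln led by signal, 0 were called in either sex, and their median change was 0.03 in males and 0.002 in females. Their summed signal, on a linear scale relative to each array's 75th percentile, was 1331 to 1404 in MAT males, 1321 to 1603 in AGED males, 1175 to 1299 in MAT females and 886 to 1545 in AGED females. Of 9 interstitial and fibroblast markers 3 were higher in AGED males and 4 in AGED females, with medians of -0.22 and -0.06 and 0 called.

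Gja4 encodes Cx37, a connexin of arterial endothelium. Its signals were 0.27, 0.38, 0.27 and 0.51 in MAT males, 0.04, 0.84, 0.58 and 0.51 in AGED males, 0.14, 0.19, 0.12 and 0.14 in MAT females and 0.03, -0.02, -0.20 and -0.12 in AGED females. In females every AGED array lay below every MAT array, whereas the male groups overlapped. Groups that did not overlap were found for 10.8% of all genes in females, and Gja4 was 1 of 6 connexin genes there. The age change of Gja4 in females was -0.23 (standard error 0.14, adjusted p = 0.626 from limma). The exact two-sided permutation test gave p = 0.0286, the smallest that 4 arrays against 4 allow. There were 12 such tests over the 6 genes and both sexes, and 16 over all 8 probes. In males AGED minus MAT was 0.14 (limma, adjusted p = 0.664, standard error 0.14; 0.02 without AGED male replicate 2 and 0.29 without replicate 1), and the difference between the sexes in age change was 0.36 (adjusted p = 0.598).

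Gja4 was also compared between the sexes, each of which lay on its own slide. The group means ran from 0.49 ± 0.34 (SD, n = 4) in AGED males through 0.36 ± 0.11 in MAT males and 0.15 ± 0.03 in MAT females to -0.08 ± 0.10 in AGED females. The steps from MAT males to MAT females (0.21) and from MAT to AGED females (0.23) exceeded the pooled SD of 0.19, and the step between the male groups (0.14) did not. Every AGED male array lay above every AGED female array, beside 13.7% of all genes whose groups did not overlap, whichever sex was higher. The difference was 0.57, or 1.49-fold (standard error 0.14, 95% interval 0.27 to 0.88, adjusted p = 0.0233 from limma). Gja4 passed the adjusted p and missed the fold limit, as the only 1 of 6 connexin genes to pass the adjusted p, beside 9.51% of all genes. With the fold limit 0 of 6 were called, beside 3.11%. The adjusted p of Gja4 was over 0.05 with median scaling (0.0718) and without AGED male replicate 2 (0.0503) or 3 (0.0564) or AGED female replicate 3 (0.0609) or 4 (0.0576). In MAT mice the difference was 0.21 (adjusted p = 0.541 from limma), with no overlap between the sexes.

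Gja5 encodes Cx40, which is found in arterial endothelium and in the atria and conduction system of the heart. Its brighter probe had -1.80, -1.78, -1.72 and -1.19 in MAT males and -0.63, -1.18, -2.17 and -1.22 in AGED males. In females the values were -1.68, -2.29, -1.34 and -1.70 on MAT arrays and -1.29, -1.74, -1.70 and -1.28 on AGED arrays. The groups overlapped in both sexes, and AGED males held both the highest and the second lowest of the 16 values. AGED minus MAT was 0.32 in males (limma, adjusted p = 0.595, standard error 0.28) and 0.25 in females (adjusted p = 0.825, standard error 0.28). The male value was 0.10 without AGED male replicate 1 and 0.61 without replicate 3, and the female value 0.07 without MAT female replicate 2 and 0.39 without replicate 3. Replicated spots nearest the Gja5 spot deviated by a mean of 0.22 on AGED male and -0.04 on MAT male arrays. Their part in the male value was not tested. The means ran from -1.30 ± 0.64 (SD, n = 4) in AGED males through -1.50 ± 0.25 in AGED females and -1.62 ± 0.29 in MAT males to -1.75 ± 0.40 in MAT females, with every step below the pooled SD of 0.42.

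Of 9 blood endothelium markers 3 were higher in AGED mice of each sex, with medians of -0.06 in males and -0.09 in females and 0 called. Their summed signal was 52.8 to 65.5 in MAT males, 36.4 to 59.9 in AGED males, 43.0 to 48.7 in MAT females and 43.6 to 51.0 in AGED females. The 7 arterial endothelium markers had medians of -0.32 and -0.24 for the age changes. Between the sexes 5 of 7 were higher in the AGED males, at a median difference of 0.30, beside the Gja4 difference of 0.57, and 0 were called. Their summed signal was 8.24 to 11.1 in AGED males and 7.31 to 9.85 in AGED females. In this sex contrast blood endothelium markers had a median of -0.10, with 4 of 9 positive, and pericyte markers -0.12, with 3 of 6. The median over all genes was 0.09. The part of these markers in the Gja4 difference was not tested. Of 6 pericyte markers 1 was higher in AGED mice of each sex, with medians of -0.25 and -0.12.

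Gjb2 and Gjb6 encode Cx26 and Cx30, which form mixed channels in the inner ear and are found in skin and other epithelia. The genes are near each other on chromosome 14 with 1 non-coding gene, Gm32912, between them. Their promoters are shown because the male and female arrays of both genes did not overlap at 12 months, as described below. Neither sex difference was called, and the Gja4 arrays did not overlap there either. Both are on the minus strand and are written in the direction of the gene. Gjb2 lies at chr14:57104653-57104952 and Gjb6 at chr14:57133562-57133861 (GRCm38.p6), and the GC box letters GGGCGG, searched on both strands, are in capitals.
Gjb2: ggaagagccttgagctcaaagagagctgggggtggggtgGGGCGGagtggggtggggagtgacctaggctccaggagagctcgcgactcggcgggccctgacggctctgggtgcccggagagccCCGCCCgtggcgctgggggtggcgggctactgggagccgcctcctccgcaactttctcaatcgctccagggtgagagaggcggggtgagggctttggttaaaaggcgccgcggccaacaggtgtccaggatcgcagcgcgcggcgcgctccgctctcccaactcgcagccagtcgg
Gjb6: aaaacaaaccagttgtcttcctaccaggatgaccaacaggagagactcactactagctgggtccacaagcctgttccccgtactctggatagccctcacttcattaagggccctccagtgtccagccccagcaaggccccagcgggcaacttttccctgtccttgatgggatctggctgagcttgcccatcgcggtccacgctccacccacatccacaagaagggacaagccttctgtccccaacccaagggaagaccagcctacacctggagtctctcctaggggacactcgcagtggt
The Gjb2 window held 2 GC boxes, neither of which overlapped another motif searched, and was 70% G and C. The Gjb6 window held none and was 57.3% G and C. Over all 32851 promoters the median was 52.7%, 35.7% held GGGCGG and 13.6% held TATAAA, which neither of the 2 genes had. Of the 6 connexin promoters 3 held a GC box and 1 a TATA box.

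The signals of Gjb2 were 1.74, 2.43, 1.83 and 1.93 in MAT males and 2.02, 1.68, 1.99 and 1.71 in AGED males. MAT females had 0.94, 1.30, 1.36 and 1.31, and AGED females had 2.26, 2.17, 1.46 and 1.32. The male groups overlapped. In females AGED replicates 1, 2 and 3 were above every MAT array, replicate 3 by the least, and replicate 4 lay inside the MAT range. The age change in females was 0.58, or 1.49-fold (standard error 0.22, 95% interval 0.12 to 1.04, adjusted p = 0.377 from limma), and the exact two-sided permutation test gave p = 0.0571. The change in males was -0.13 (limma, adjusted p = 0.794, standard error 0.22). The difference between the changes was -0.71 (standard error 0.31, unadjusted p = 0.0353, adjusted p = 0.467 from limma).

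Gjb6 had 3.66, 4.14, 3.87 and 3.67 in MAT males and 2.55, 3.41, 3.59 and 3.51 in AGED males. In females the values were 2.995, 3.24, 3.24 and 3.50 on MAT arrays and 3.80, 4.02, 3.50 and 3.28 on AGED arrays. Every AGED male array lay below every MAT male array, and the female groups overlapped. Gjb6 was 1 of 6 connexin genes whose male groups did not overlap, beside 7.82% of all genes. The age change in males was -0.57 (standard error 0.22, 95% interval -1.05 to -0.09, unadjusted p = 0.0229, adjusted p = 0.224 from limma; exact two-sided permutation test, p = 0.0286). It was -0.33 without AGED male replicate 1, the lowest array. In females AGED minus MAT was 0.41 (limma, adjusted p = 0.561, standard error 0.22). The difference between the sexes was -0.98 (standard error 0.32, 95% interval -1.66 to -0.30, unadjusted p = 0.00791, adjusted p = 0.286 from limma), the lowest unadjusted p for that difference among the 6 genes. Replicated spots nearest the Gjb6 spot deviated by a mean of 0.11 on MAT male and -0.05 on AGED male arrays, with -0.23 on AGED male replicate 1. Their part in the male value was not tested.

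At 12 months both genes were higher in males than in females without overlap of the groups, and so was Gja4. These were 3 of 6 connexin genes, beside 18.4% of all genes whose groups did not overlap, whichever sex was higher. The difference was 0.76 for Gjb2 (standard error 0.22, unadjusted p = 0.00341, adjusted p = 0.139 from limma) and 0.59 for Gjb6 (unadjusted p = 0.0193, adjusted p = 0.258). With the call rule 0 of 6 connexin genes were called in MAT mice, beside 0.164% of all genes. All 8 umbrella cell markers of the urothelium were also higher in MAT males, with a median of 0.38 beside 0.08 over all genes, and 0 were called. Their summed signal, led by Upk1a and Krt18, was 575 to 758 in MAT males and 524 to 588 in MAT females. Of the tested basal and stratified epithelium markers 5 of 6 were higher in MAT males, with a median of 0.29 and summed signals of 176 to 232 in males and 154 to 195 in females. The other cell type lists with a median above 0 included neutrophil (0.28), arterial endothelium (0.23), macrophage (0.19) and smooth muscle markers (0.16). T cell markers went the other way, with 0 of 8 higher in MAT males and a median of -1.28. So did adipocyte markers (-3.04), Schwann cell markers (-0.05) and the 1 tested male accessory gland marker (-0.85). The part of these markers in the sex difference of Gjb2 and Gjb6 was not tested. In AGED mice the sex difference was 0.04 for Gjb2 (adjusted p = 0.922 from limma) and -0.39 for Gjb6 (adjusted p = 0.296).

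The group means of Gjb2 ran from 1.98 ± 0.31 (SD, n = 4) in MAT males through 1.85 ± 0.18 in AGED males and 1.80 ± 0.48 in AGED females to 1.23 ± 0.19 in MAT females. Only the last step, 0.58, exceeded the pooled SD of 0.32. Those of Gjb6 ran from 3.84 ± 0.23 in MAT males through 3.65 ± 0.33 in AGED females and 3.27 ± 0.48 in AGED males to 3.25 ± 0.21 in MAT females. There the step from AGED females to AGED males, 0.39, exceeded the pooled SD of 0.33, and the others did not. MAT females were thus the lowest group for both genes. With age the umbrella cell markers had medians of -0.12 in males (3 of 8 higher) and 0.24 in females (6 of 8 higher). Their sums were 676 to 755 in AGED males and 477 to 635 in AGED females. Of the 10 markers of basal and stratified epithelium 6 were tested, and all 6 were higher in AGED mice of either sex, with medians of 0.19 and 0.23 and 0 called. The part of these markers in the age values of both genes was not tested.

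**Figure D4:**
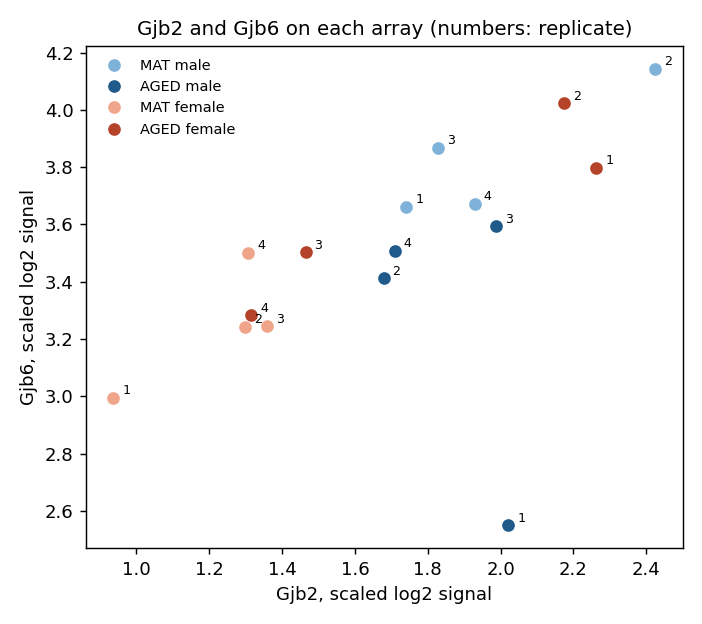
Scaled log2 signal of Gjb6 (y axis) against that of Gjb2 (x axis), with 1 point per array coloured by group and numbered by replicate. MAT females sit at the lower left and MAT males toward the upper right, and AGED male replicate 1 lies apart at 2.02 for Gjb2 and 2.55 for Gjb6.

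Gjb5, on chromosome 4, encodes a connexin of stratified epithelium. Its signals were -5.92, -7.91, -6.81 and -6.80 in MAT males, -5.87, -5.90, -5.75 and -6.39 in AGED males, -5.68, -6.86, -7.21 and -6.35 in MAT females and -5.18, -5.33, -6.74 and -6.02 in AGED females. With 2 of 16 arrays well above background these are values near background, so no fold is given.

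The deviations of each tested gene from its group means were compared with those of all other named genes over the 16 arrays. The arrays share slides and positions, and the correlations are a description. Where an array was left out, the deviations were still taken from group means that included it. The closest to Gja1 were Ldha (r = 0.92), Mcm9 (0.91) and Ctbp1 (0.91), and those to Gja4 were Gnai2 (0.97), Lrch3 (0.93) and Dynlt1c (0.93). Gja5 was most like Orai1 (0.91), Tmigd1 (0.91) and Rdh10 (0.90). The patterns nearest to Gjb2 were Mxd1 (0.93), Tmem125 (0.93) and Tnk2 (0.93), and those nearest to Gjb6 were Atp11a (0.96), Mybbp1a (0.94) and Endod1 (0.94). For Gjc1 they were Noa1 (0.95), Fam110b (0.95) and Zfp3 (0.95), which fell to 0.81, 0.85 and 0.80 without MAT male replicate 2. The values of Gja4 became 0.93, 0.85 and 0.83 without AGED male replicate 1. Those of Gja5 became 0.86, 0.85 and 0.84 without AGED male replicate 3. For Gja1, Gjb2 and Gjb6 they stayed at 0.87 or above without the array farthest from its group mean. Among the 15 pairs of the 6 connexin genes the highest correlation was that of Gja1 and Gja4 (0.76) and the lowest that of Gja5 and Gjb6 (-0.56). This order rested on AGED male replicate 1. Without it Gjb2 and Gjb6 had the highest value (0.75 in place of 0.46), and Gja1 and Gja4 had 0.66. The lowest values lay close together, at -0.41 for Gjb2 and Gjc1, -0.40 for Gjb6 and Gjc1 and -0.38 for Gja5 and Gjb6. Since the group means still held that array, the order of these low pairs is not settled.

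Of 16 other connexin and pannexin genes 7 were tested, and 0 were called in either sex, with medians of 0.33 in males and 0.01 in females. Among the others, Gja3, Gja10, Gjd2, Gjd3, Gjd4, Gje1, Panx2 and Panx3 had no probe well above background on at least 4 arrays. Gjb1, the main connexin of liver and of Schwann cell myelin, had 0.68 in males (adjusted p = 0.0763 from limma) and 0.01 in females (adjusted p = 0.994). Schwann cell markers had medians of -0.28 in males and -0.54 in females, with 2 and 1 of 7 higher and 0 called, and their part in the Gjb1 value was not tested. In AGED mice Gjb1 was higher in males than in females by 0.77, with an adjusted p of 0.0181 from limma and under 2-fold. In that comparison 6 of 7 Schwann cell markers were higher in males, at a median of 0.32 beside 0.09 over all genes. Their part in this sex difference was not tested. Panx1, a channel protein through which urothelial cells are known to release ATP, had 0.30 in females (adjusted p = 0.424 from limma).

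Connexins are anchored, phosphorylated and removed by partner proteins such as the scaffold Tjp1. All 22 partner genes were tested, 0 were called in either sex, and 10 of 22 were higher in AGED mice of each sex, with medians of -0.007 and -0.06. The 3 with the lowest adjusted p in either sex were Prkca, Cdh2 and Nedd4. Prkca, a kinase that phosphorylates Cx43, had an age change of -0.69 in males (adjusted p = 0.0952 from limma) and -0.12 in females (adjusted p = 0.904). The adherens junction gene Cdh2 had -0.45 (adjusted p = 0.234 from limma) and -0.39 (adjusted p = 0.467), and the ubiquitin ligase gene Nedd4 -0.06 (adjusted p = 0.793) and -0.29 (adjusted p = 0.376).

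All 16 genes of transcription factors and signals known to control connexin genes were tested and 0 were called. Of them 5 were higher in AGED males and 3 in AGED females, with medians of -0.25 and -0.13. Jun, part of the AP-1 factor whose letters are shown in the Gja1 promoter, had -1.17 in males (adjusted p = 0.165 from limma) and -0.23 in females (adjusted p = 0.905). The Notch ligand gene Dll4 had -0.46 (adjusted p = 0.174 from limma) and -0.24 (adjusted p = 0.663), and Tbx5 -0.43 (adjusted p = 0.183) and -0.45 (adjusted p = 0.326).

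Markers of immune, fat and other cells were measured in the same arrays. Median age changes were 0.90 in males and -0.19 in females for 8 T cell markers, 0.36 and 0.37 for 7 of 8 macrophage markers, and 0.69 and 1.21 for 6 of 8 neutrophil markers, of which 2 were called higher in AGED males. The 6 adipocyte markers had -0.65 and -0.98 with age, and -3.04 and -3.02 for males minus females at each age, with 0 called. Of 6 skeletal muscle markers 4 were tested, with medians of -0.44 and -0.11, and of 6 male accessory gland markers 1 was tested, with -0.28 and -0.06. The part of these cells in the connexin values was not tested.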

How the data were processed

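Bladder body RNA of 16 mice was labelled with Cy3 and hybridized to 1-colour Agilent arrays. The authors deposited scanner output from Feature Extraction with 1 intensity per spot (processed signal, background-subtracted and detrended) and a table of log2 values, which matched the scanner values centred per probe on the median. The labels name Feature Extraction 9.1 and the file headers 10.7.3.1. Here log2 processed signals were taken, the 75th percentile of each array was subtracted, control spots and 4081 spot values with an outlier flag were left out, and spots of a probe were averaged. No spot was saturated (0 found). Probes well above background on at least 4 of 16 arrays were kept (36974 of 55681), and a gene was its kept probe of highest mean. Names came from RefSeq (GRCm38.p6), through which 26582 probes were named. An accession without a name was kept as a gene of its own. Of the 26781 genes tested 15933 had a name, and the shares over all genes cover both kinds.

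The comparisons used limma 3.58.1 (R 4.3.3), fitted as 4 group means over 16 arrays (12 residual degrees of freedom), with Benjamini-Hochberg adjustment over 26781 genes. The difference of age changes had no fold limit. The script was tested on simulated data. Labels give 1 bladder per array. The members and the lists of other connexins, partners, regulators and cell markers were chosen with earlier results of these data known. Named genes are the members, tested other connexins (the values of some are not reported here), the 3 partners and 3 regulators of lowest adjusted p, the 3 genes most like each member, and at most 2 markers per list. Promoters are RefSeq windows. Alternatives covered scaling, background correction, filters, a floor, probe summaries, the authors' log2 table, the methods' t-test, variance models, the replicate block, each sex alone and each array left out.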

Additional observations from a re-analysis of the deposited data

Results flagged for a closer look

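Of 24 groups of member values (6 genes, 4 groups each), 4 held an array that stood apart, measured as its gap to the nearest array over the range of the group. Chance marks about 5% of groups in this way. MAT female replicate 3 was low for Gja1 (0.884 of the range, -1.81 against -1.62 to -1.59 on the others), and MAT male replicate 4 was high for Gja5 (0.866, -1.19 against -1.80 to -1.72). MAT female replicate 1 was low for Gjb2 (0.853, 0.94 against 1.30 to 1.36), and MAT male replicate 2 was low for Gjc1 (0.835, -0.72 against 0.46 to 0.70). Without MAT male replicate 2 the age change of Gjc1 in males was -0.12 in place of 0.22.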

How the results depend on the processing

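No member was called under any of 16 alternatives or with any 1 array left out. Of 384 values 380 kept their direction, but many of these could not have changed it. The filters, the floor and the mean of kept probes left each tested member with the same values. The t-tests, the variance trend, the replicate block, each sex alone and no fold limit left the group differences as they were. Directions could change with scaling, background correction, the authors' table, array weights and, for Gja1, the median of its spots. Normexp on the median spot signal turned Gja4 in males to -0.037, Gjb2 in males to 0.16 and the difference of age changes of Gja5 to -0.11. It moved the median of all genes from 0.001 to 0.12 in males, from 0.016 to 0.11 for the difference, from 0.08 to 0.14 for the sex difference of MAT mice and from 0.09 to 0.25 for that of AGED mice. Median scaling turned the sex difference of Gjb2 in AGED mice to -0.0037. The cause was not tested.

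With 1 array left out, 13 of 480 values changed sign. The age change in males ran from -0.21 to 0.02 for Gjb2 and from -0.12 to 0.36 for Gjc1 (0.02 and -0.12 without MAT male replicate 2) and from -0.68 to -0.33 for Gjb6. The difference of age changes of Gja5 ran from -0.15 to 0.36. The sex difference in MAT mice ran from -0.038 to 0.17 for Gja1 and from -0.049 to 0.27 for Gja5, and in AGED mice from -0.024 to 0.49 for Gja5 and from -0.12 to 0.20 for Gjb2. The adjusted p from limma of the sex difference of Gja4 in AGED mice ran from 0.00143 to 0.0609. That of Gja1, 0.114 with all arrays, was 0.0455 without AGED female replicate 3. The Gja1 values include the low spots of AGED male arrays described above. Over all genes, the number called with 1 array left out ran from 123 to 373 in males, 1 to 119 in females, 6 to 270 for the difference, and 17 to 116 and 613 to 1257 for the sex difference in MAT and AGED mice, beside 228, 51, 40, 44 and 834 with all arrays. Normexp gave 753 in males and 466 for the difference, and the replicate block 3 in females and 12 for the difference.

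The lowest adjusted p of any age change was 0.0828, for Gjb2 in females with array weights (0.66). The methods' t-test had an unadjusted p of 0.00560 for Gja4 and 0.0173 for Gjc1 in females, both under 2-fold. The replicate number of an array was also its column on the slide. No pairing by that number was seen, with 0 of 8 same-numbered pairs correlated above 0.1 (r from -0.15 to 0.07). With 4 arrays per group such correlations cannot settle whether the numbers pair the arrays. With the replicate block the adjusted p was 0.221 for Gjb6 in males and 0.0363 for Gja4 in AGED mice, and no call changed. With no filter on dim probes Gjb5 had 0.88 in males (adjusted p = 0.296 from limma) and 0.71 in females (adjusted p = 0.512), from signals near background, and no fold was drawn from it.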
